A study of Mus musculus with 45 samples.

Results

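Fos, Fosb, Jun, Junb, Egr1, Egr2, Egr3, Nr4a1, Nr4a2 and Nr4a3 are immediate early genes, and all 10 code for transcription factors that antigen receptor signals switch on. They were picked by symbol, and they are 10 of the 55450 genes in the deposited table of counts. Immediate early genes are transcribed within minutes of a signal without new protein synthesis, and their transcripts are short-lived. In lymphocytes the ERK pathway acts through serum response factor on the Fos and Egr genes, while calcium signals act through NFAT and MEF2 factors on the Nr4a genes. Nr4a1, also called Nur77, is widely used to report antigen receptor signalling, and Fos and Jun are also known to respond to the handling of cells.

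The data were polyadenylated RNA sequenced from 45 samples of sorted lymphocytes, taken to learn how loss of the sphingosine 1-phosphate receptor S1PR4 changes follicular helper T (TFH) and germinal centre (GC) B cells. S1PR4-/- mice, a germline knockout of strain B6.129P2-S1pr4tm1Dgen/J crossed back to C57/BL6 for at least 10 generations, were compared with wild-type (WT) littermates. Mice of both sexes, 8 to 12 weeks of age, received in the hind footpad 20 µL of incomplete Freund's adjuvant with 50 µg of ovalbumin and 5 µg of lipopolysaccharide, and the draining popliteal lymph node was taken. TFH cells (TCRβ+ CD4+ PD1+ CXCR5+) and non-TFH cells (TCRβ+ CD4+ PD1- CXCR5-) came from day 6, with 6 samples of each genotype. GC B cells (B220+ GL7+ Fas+) came from day 9 with 6 samples of each genotype, and non-GC B cells (B220+ GL7- Fas-) from day 9 with 5 WT and 4 S1PR4-/- samples. Day and lineage therefore cannot be told apart in a comparison of T with B cells. The knockout was in every cell of the mouse, so effects within and outside the sorted cells cannot be told apart either.

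Total counts per sample ranged from 26299429 to 45548215. Levels are given as CPM, the count of a gene relative to the size of its library after TMM scaling over all 45 samples, and levels of different genes are compared only as CPM per kb of exon. The targeted gene S1pr4 had 505 to 6305 counts in the WT samples, with 505 to 1205 in GC B and 1811 to 3170 in TFH cells, and 0 to 40 counts in the S1PR4-/- samples. The sort labels matched their markers. The summed level of 10 T cell genes was 7017 to 9766 CPM in the 24 T cell samples and 66.3 to 203.0 CPM in the 21 B cell samples, where Cd3d, Cd3e, Cd3g, Trac and Thy1 each averaged under 1 CPM. The sum of 10 B cell genes was 7088 to 15754 CPM in B cell samples, 59.0 to 102.2 CPM in non-TFH and 156.3 to 450.7 CPM in TFH cells. For 8 TFH markers the sum was 2665 to 4087 CPM in TFH and 208.7 to 486.7 CPM in non-TFH cells. The GC B markers Rgs13, Gcsam and Mybl1 each averaged at least 1 CPM in both GC B groups and under 1 CPM in the other 6 groups.

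Lists for other cell types gave these sums. Myeloid markers reached at most 435.7 CPM, in a S1PR4-/- TFH sample, with Lyz2 the most abundant, while S100a8, S100a9, Cd14 and Fcgr1 averaged under 1 CPM in every group. Plasma cell markers summed to 3991 to 8766 CPM in WT and 2037 to 17656 CPM in S1PR4-/- GC B samples, led by Jchain, against 511.3 to 854.6 and 561.0 to 635.6 CPM in non-GC B samples. Regulatory T cell markers summed to 165.9 to 673.4 CPM in T cells and at most 7.14 CPM in B cells. CD8 and NK markers summed to 51.5 to 163.3 CPM in T cells and 5.01 to 64.6 CPM in B cells. Stromal and endothelial markers summed to 88.8 to 386.4 CPM, nearly all of it Pecam1, with Cdh5, Col1a2, Pdgfrb and Pdpn under 1 CPM on average in every group. The part of these marker differences in the members' differences between effector and other cells was not tested. The samples are bulk RNA, so more cells of a type with a transcript and more of it per cell cannot be told apart at any value given here.

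A library stood apart for Fos and is named before the results. S1PR4-/- GC B replicate 4 had 37.0 CPM of Fos (1063 counts), while the other 5 libraries of its group had 0.853 to 2.00 CPM. It ranked first of its 6 libraries for Fosb (0.174 CPM) and Junb (125.7 CPM) and second for Jun (19.6 CPM), Egr1 (75.01 CPM), Egr3, Nr4a1 and Nr4a3. For Egr2 it ranked 4 of 6, and Nr4a2 had 0 counts. Its B cell marker sum was 9431 CPM, its T cell sum 155.7 CPM, its plasma cell sum 2037 CPM (the lowest of the group) and its myeloid sum 126.2 CPM (the highest of the group), and their part in the Fos value was not tested. The variable gene Igkv3-3 also stood out there, at 53.0 CPM against at most 1.57 CPM in the other GC B libraries. The main tests and the order of mean levels for Fos in S1PR4-/- GC B cells are given with and without this library.

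Per kb of exon in WT TFH cells, the mean level was highest for Junb (111.1 CPM per kb), followed by Egr1 (47.6), Egr2 (36.8) and Nr4a1 (25.6), then Fos (4.69), Egr3 (1.93), Jun (1.66), Nr4a2 (1.10), Nr4a3 (0.373) and Fosb (0.0517). In WT non-TFH cells the order began with Junb (82.5 CPM per kb), Nr4a1 (29.5), Egr1 (28.8) and Egr2 (10.3). WT GC B cells had Junb first (43.1 CPM per kb), then Egr1 (13.7), Egr2 (5.64), Jun (5.52) and Nr4a1 (4.43), with Fos at 0.880. In WT non-GC B cells Junb (54.9 CPM per kb) was followed by Nr4a1 (24.7), Jun (13.97), Egr1 (11.6), Egr3 (6.50) and Egr2 (5.16). Junb thus led in all 4 WT populations, and Nr4a2, Nr4a3 and Fosb had the 3 lowest levels in each of them. The plot of the members by sample shows all values on the log scale.

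**Figure D1:**
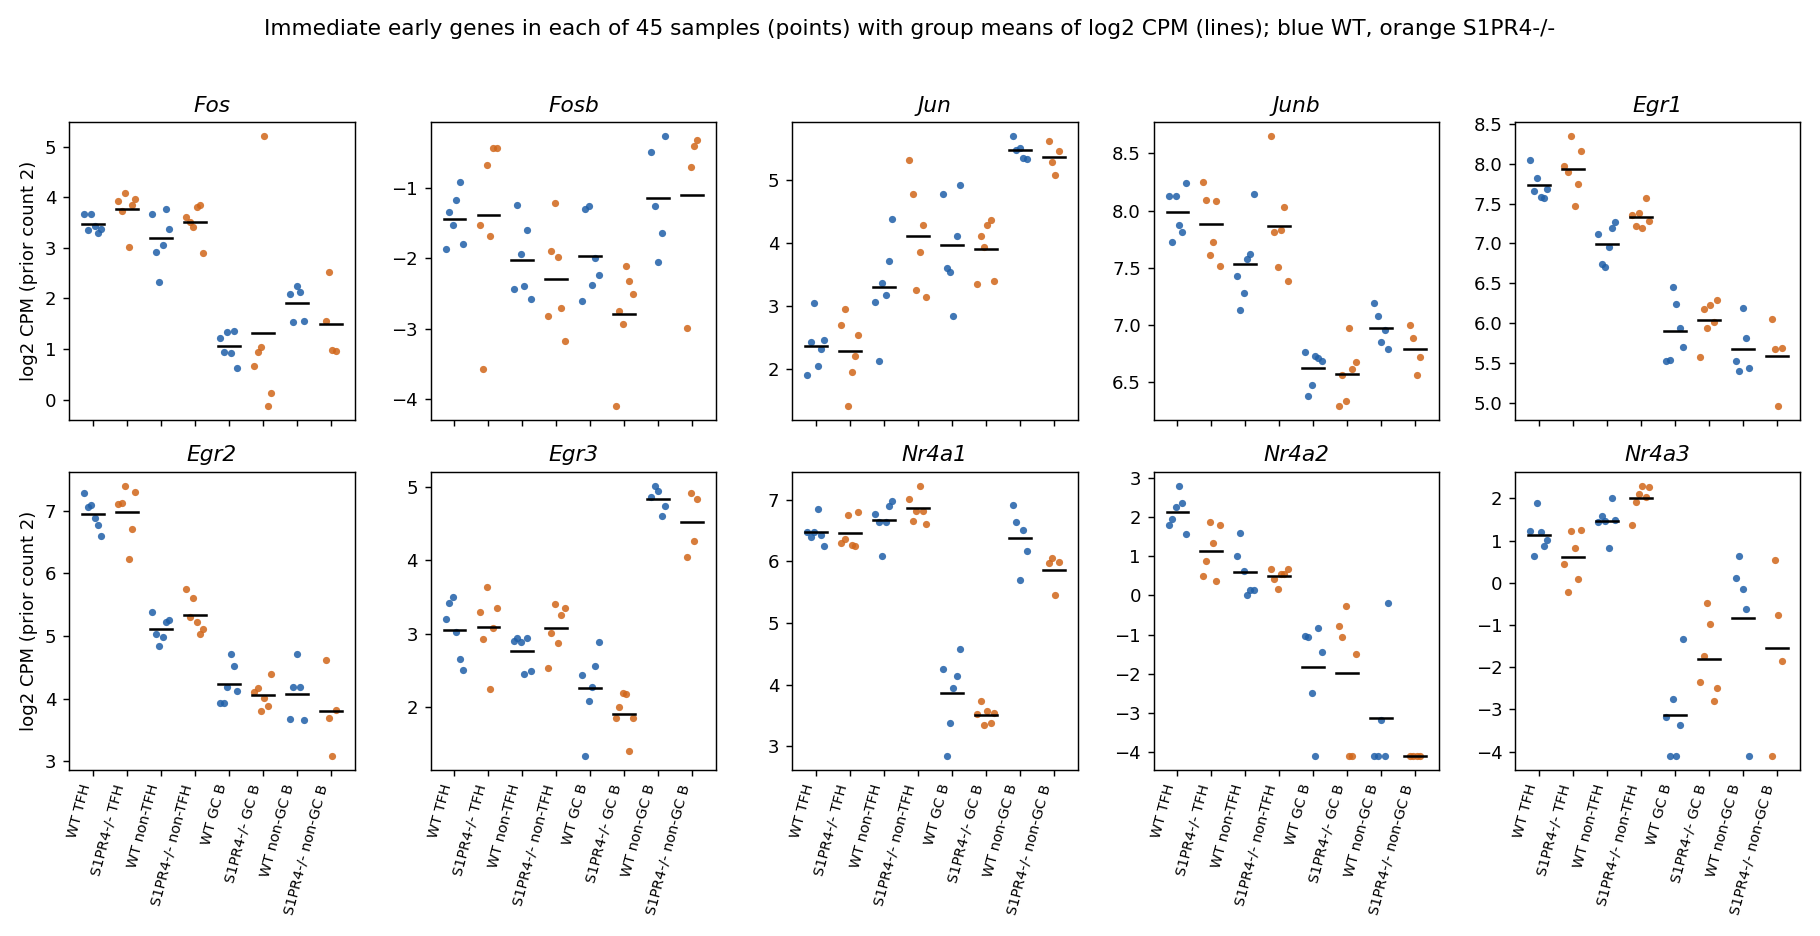
Level of each of the 10 members in each of the 45 samples, as log2 CPM with a prior count of 2, in the 8 groups of population and genotype (blue points WT, orange points S1PR4-/-, line at the group mean). Egr2 is highest in TFH cells, Egr3 and Jun in non-GC B cells, and 1 S1PR4-/- GC B sample lies at 37.0 CPM of Fos.

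Differences between groups were tested with edgeR's quasi-likelihood F test over every gene that passed a filter on low counts, and p values were adjusted over all of them by the Benjamini-Hochberg method. A gene is called when its adjusted p is under 0.05 and its fold change is over 1.5, and a difference of differences (an interaction) when its adjusted p is under 0.05. Every adjusted p below is from that test unless another tool is named, and each fold change is on the log2 scale with its standard error (SE). Groups are said to overlap when the lowest sample of the higher group was not above the highest sample of the lower group.

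Promoters are shown for 4 members that moved between populations, Egr2 in T cells and Fos, Nr4a1 and Nr4a3 in WT B cells, to let their sequence be read beside those values. RefSeq held promoter windows of 300 bases (250 before to 50 after a gene start, build GRCm38.p6) for 8 of the 10 members, 12 windows in all. Egr1 and Egr3 had no window. Capitals mark a match to the CArG box, the element bound by serum response factor, or to TGACG, the core of the cAMP response element, on either strand. The windows are chr12:85473640-85473939 for Fos, chr10:67537619-67537918 for Egr2 (1 of 5 for this gene), chr15:101266596-101266895 for Nr4a1 and chr4:48045055-48045354 for Nr4a3, all on the plus strand and written 5′ to 3′.
Fos: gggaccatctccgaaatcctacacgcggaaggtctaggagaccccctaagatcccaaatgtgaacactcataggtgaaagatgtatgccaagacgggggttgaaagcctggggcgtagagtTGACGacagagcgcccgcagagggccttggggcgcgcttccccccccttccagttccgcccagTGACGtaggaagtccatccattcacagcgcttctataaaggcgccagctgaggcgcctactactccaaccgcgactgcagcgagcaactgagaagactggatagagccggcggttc
Egr2: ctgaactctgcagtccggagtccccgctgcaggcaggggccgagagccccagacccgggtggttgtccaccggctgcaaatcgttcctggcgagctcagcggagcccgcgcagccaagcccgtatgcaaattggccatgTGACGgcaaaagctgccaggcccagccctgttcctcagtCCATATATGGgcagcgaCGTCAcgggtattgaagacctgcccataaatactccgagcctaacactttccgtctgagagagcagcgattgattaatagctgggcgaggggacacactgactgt
Nr4a1: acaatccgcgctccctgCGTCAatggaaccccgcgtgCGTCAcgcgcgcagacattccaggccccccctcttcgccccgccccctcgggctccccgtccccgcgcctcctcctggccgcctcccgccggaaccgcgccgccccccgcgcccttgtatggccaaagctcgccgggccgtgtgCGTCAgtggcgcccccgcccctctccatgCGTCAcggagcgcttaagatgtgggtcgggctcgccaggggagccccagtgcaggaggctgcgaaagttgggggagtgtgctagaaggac
Nr4a3: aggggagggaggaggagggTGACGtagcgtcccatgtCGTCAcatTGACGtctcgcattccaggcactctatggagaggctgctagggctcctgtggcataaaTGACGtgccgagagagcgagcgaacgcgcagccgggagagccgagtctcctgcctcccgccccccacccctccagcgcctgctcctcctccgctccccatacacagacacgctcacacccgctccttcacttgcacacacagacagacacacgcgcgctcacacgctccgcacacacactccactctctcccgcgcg

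On both strands, TGACG was found in 7 of the 8 members with a window and in 20.8% of all 32851 promoter windows of this length, with 2 matches in Fos, 4 each in Nr4a1, Nr4a2 and Nr4a3, and none in Jun. The whole cAMP response element TGACGTCA, which contains TGACG, was found in none of the 8 and in 1.79% of all windows. The CArG box was found in Egr2 alone of the 8, its first base at position -72 from the start in the window shown, and in 1.63% of all windows. Sequence outside the windows was not searched, so a CArG box elsewhere near Fos or another member would be missed. TGANTCA, the AP-1 site, was found in none of the 8 and in 7.81% of all windows. GCGNGGGCG, the EGR site, was found in 3 of the 8 (Fosb, Nr4a1 and Nr4a2) and in 5.55% of all windows, and GGAAA, the NFAT core, in 3 of the 8 (Jun, Egr2 and Nr4a2) and in 61.3%. These are matches of letters, and binding was not measured.

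The AP-1 genes come first. Fos (ENSMUSG00000021250.13, chr12:85473890-85477273, plus strand, mm10) codes for a leucine zipper protein that binds DNA as a dimer with a JUN protein. In T cells Fos had a lowest, median and highest level of 9.76, 10.5 and 12.7 CPM in WT TFH, 8.05, 14.8 and 16.8 CPM in S1PR4-/- TFH, 4.98, 9.27 and 13.5 CPM in WT non-TFH, and 7.44, 11.8 and 14.3 CPM in S1PR4-/- non-TFH samples (n = 6 each). All 4 groups overlapped, and TFH differed from non-TFH cells by a log2 fold change of 0.21 (SE 0.20, adjusted p = 0.359) in WT and 0.26 (SE 0.18, adjusted p = 0.213) in S1PR4-/- mice. In WT GC B cells the lowest, median and highest Fos levels were 1.48, 2.06 and 2.51 CPM (n = 6), and the 5 WT non-GC B samples had 4.20, 2.85, 4.70, 4.30 and 2.88 CPM. All 6 WT GC B samples lay below all 5 WT non-GC B samples, and Fos was called lower, with a log2 fold change of -0.81 (SE 0.22, adjusted p = 0.00644). With all 8 groups in the fit the value was -0.87 and no longer called (adjusted p = 0.177). That fit also takes in the S1PR4-/- GC B library at 37.0 CPM, whose part in the lost call was not tested. The S1PR4-/- GC B samples had 0.853, 1.70 and 37.0 CPM (lowest, median, highest), and the 4 S1PR4-/- non-GC B samples had 2.88, 5.69, 1.91 and 1.88 CPM. These groups overlapped, and the log2 fold change was 1.33 (SE 1.12, adjusted p = 0.316) with the library at 37.0 CPM and -1.03 (adjusted p = 0.0507) without it. By mean, Fos was highest in S1PR4-/- TFH (13.8 ± 3.09 CPM, SD), S1PR4-/- non-TFH (11.7 ± 2.52), WT TFH (11.03 ± 1.29) and WT non-TFH cells (9.53 ± 3.24). S1PR4-/- GC B (7.38 ± 14.5, or 1.46 ± 0.501 without replicate 4), WT non-GC B (3.79 ± 0.861), S1PR4-/- non-GC B (3.09 ± 1.79) and WT GC B cells (2.07 ± 0.413) followed, and every neighbouring pair in that order overlapped. Without replicate 4 the S1PR4-/- GC B group came last, at most 2.00 CPM and overlapping WT GC B, and WT non-TFH (at least 4.98 CPM) did not overlap the next group, WT non-GC B (at most 4.70 CPM).

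Fosb (ENSMUSG00000003545.3, chr7:19302696-19310051, minus strand) codes for a second FOS protein and was close to the detection limit, with at most 0.782 CPM anywhere. WT TFH samples had 0.216, 0.313 and 0.476 CPM (lowest, median, highest), S1PR4-/- TFH 0.0259, 0.431 and 0.689, WT non-TFH 0.109, 0.168 and 0.366, and S1PR4-/- non-TFH 0.0528, 0.146 and 0.374 CPM. The WT non-GC B samples had 0.659, 0.361, 0.184, 0.263 and 0.782 CPM and the S1PR4-/- non-GC B samples 0.0677, 0.562, 0.703 and 0.753 CPM. GC B samples had 0.106 to 0.364 CPM in WT and 0 to 0.174 CPM in S1PR4-/- mice. All neighbours in the order of mean levels overlapped, from 0.521 ± 0.313 CPM (SD, n = 4) in S1PR4-/- non-GC B to 0.0996 ± 0.0608 CPM (n = 6) in S1PR4-/- GC B cells. Fosb was not called between effector and other cells of WT mice, at 0.69 (SE 0.38, adjusted p = 0.121) for TFH and -0.97 (SE 0.50, adjusted p = 0.101) for GC B cells on the log2 scale. Without WT non-TFH replicate 2, the TFH value was 0.93 and called (adjusted p = 0.0463). Low counts kept it out of both S1PR4-/- effector tests.

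Jun (ENSMUSG00000052684.4, chr4:95049034-95052222, minus strand) codes for the JUN partner of the dimer, and the antisense gene Junos overlaps it by 689 bases on the other strand. The lowest, median and highest levels were 3.70, 5.14 and 8.22 CPM in WT TFH and 4.34, 9.67 and 20.8 CPM in WT non-TFH samples (n = 6 each). The groups overlapped, with WT non-TFH replicate 2 lowest at 4.34 CPM and replicate 6 highest, and Jun was called lower in TFH cells at a log2 fold change of -1.05 (SE 0.30, adjusted p = 0.00623). In S1PR4-/- mice TFH samples had 2.60, 5.19 and 7.69 CPM and non-TFH samples 8.84, 17.0 and 40.0 CPM. All 6 TFH samples lay below all 6 non-TFH samples, and the log2 fold change was -1.93 (SE 0.37, adjusted p = 3.20e-04). WT GC B samples had 7.10, 14.7 and 30.3 CPM, below all 5 WT non-GC B samples at 52.0, 44.4, 45.5, 40.6 and 40.3 CPM. S1PR4-/- GC B samples had 10.2, 16.2 and 20.5 CPM, below all 4 S1PR4-/- non-GC B samples at 49.0, 39.2, 33.9 and 43.9 CPM. Jun was thus lower in all 6 GC B samples of each genotype, with log2 fold changes of -1.28 (SE 0.31, adjusted p = 0.00249) in WT and -1.36 (SE 0.21, adjusted p = 1.55e-04) in S1PR4-/- mice. By mean, WT non-GC B (44.6 ± 4.73 CPM, SD), S1PR4-/- non-GC B (41.5 ± 6.45), S1PR4-/- non-TFH (20.0 ± 12.0) and WT GC B cells (17.6 ± 9.31) were highest. S1PR4-/- GC B (15.5 ± 4.41), WT non-TFH (10.96 ± 5.59), WT TFH (5.28 ± 1.60) and S1PR4-/- TFH cells (5.16 ± 1.85) followed, and all neighbours in the order overlapped.

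Junb (ENSMUSG00000052837.6, chr8:84974484-84978718, minus strand) codes for a second JUN protein, and Prdx2 overlaps it by 351 bases on the other strand. Its lowest, median and highest levels were 211.2, 257.3 and 302.2 CPM in WT TFH and 140.5, 181.3 and 283.4 CPM in WT non-TFH samples. The groups overlapped, and a log2 fold change of 0.43 (SE 0.15, adjusted p = 0.0166) lay under the fold threshold. S1PR4-/- TFH samples had 183.1, 241.7 and 303.5 CPM and S1PR4-/- non-TFH samples 167.0, 226.0 and 402.4 CPM, with non-TFH replicate 1 the highest sample of all 45. The log2 fold change there was -0.01 (SE 0.19, adjusted p = 0.971). In WT GC B cells the samples had 83.4, 103.8 and 108.8 CPM, and the WT non-GC B samples had 146.4, 135.0, 115.3, 124.3 and 110.8 CPM. All 6 lay below all 5, at a log2 fold change of -0.29 (SE 0.09, adjusted p = 0.0121) that was also under the fold threshold. Among S1PR4-/- GC B samples the values were 78.1, 96.1 and 125.7 CPM and overlapped the non-GC B samples at 128.3, 118.2, 94.6 and 105.2 CPM, with a log2 fold change of -0.15 (SE 0.14, adjusted p = 0.366). Mean levels ran from WT TFH (255.6 ± 36.5 CPM, SD), S1PR4-/- non-TFH (244.2 ± 84.7), S1PR4-/- TFH (239.8 ± 49.2) and WT non-TFH (189.8 ± 50.5) to WT non-GC B (126.4 ± 14.5), S1PR4-/- non-GC B (111.6 ± 14.7), WT GC B (99.1 ± 10.4) and S1PR4-/- GC B cells (96.5 ± 17.2). Each neighbouring pair overlapped.

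The EGR genes code for zinc finger factors. Egr1 (ENSMUSG00000038418.7), the founding member and an ERK target, had a lowest, median and highest level of 190.6, 203.6 and 264.7 CPM in WT TFH and 104.3, 131.4 and 153.6 CPM in WT non-TFH samples. All 6 TFH samples lay above all 6 non-TFH samples, and Egr1 was called higher at a log2 fold change of 0.73 (SE 0.11, adjusted p = 2.65e-05). S1PR4-/- TFH samples had 177.4, 244.9 and 325.8 CPM and S1PR4-/- non-TFH samples 146.1, 159.7 and 189.6 CPM. They overlapped through TFH replicate 4 at 177.4 CPM, and the log2 fold change of 0.64 (SE 0.12, adjusted p = 3.88e-04) was called but close to the fold threshold. It was not called after scaling by total counts (0.56) or without TFH replicate 3 (0.54). WT GC B samples had 45.9, 56.4 and 87.3 CPM against 45.8, 42.2, 73.2, 56.1 and 43.1 CPM in WT non-GC B samples. The GC B samples of S1PR4-/- mice had 47.4, 68.1 and 77.9 CPM against 66.0, 51.1, 30.9 and 51.7 CPM in S1PR4-/- non-GC B samples. Both pairs overlapped, with log2 fold changes of 0.30 (SE 0.20, adjusted p = 0.197) in WT and 0.47 (SE 0.19, adjusted p = 0.0515) in S1PR4-/- mice, the latter 0.64 and called (adjusted p = 0.0147) without non-GC B replicate 1 and 0.28 without replicate 3. In the order of means, S1PR4-/- TFH (248.6 ± 52.3 CPM, SD) and WT TFH (213.3 ± 28.1) overlapped, as did S1PR4-/- (161.6 ± 15.9) and WT non-TFH (129.1 ± 20.5), while WT TFH did not overlap S1PR4-/- non-TFH, nor WT non-TFH the next group, S1PR4-/- GC B. The B cell groups all overlapped, from S1PR4-/- GC B (66.3 ± 11.2) and WT GC B (61.4 ± 16.9) to WT non-GC B (52.1 ± 13.03) and S1PR4-/- non-GC B cells (49.9 ± 14.4).

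Egr2 (ENSMUSG00000037868.15, chr10:67535475-67542188, plus strand) codes for a factor known in T cells for restraint of activation and for a part in TFH cells, and it showed the widest gap between TFH and non-TFH cells among the members called higher there. It lies on the chromosome of S1pr4 (chr10:81497747-81500132), and DNA carried along with the targeted allele was not tested. WT TFH samples had 96.5, 125.7 and 155.4 CPM (lowest, median, highest) and WT non-TFH samples 28.7, 34.9 and 41.9 CPM. S1PR4-/- TFH samples had 75.1, 138.8 and 169.1 CPM and S1PR4-/- non-TFH samples 32.7, 38.3 and 53.9 CPM. In both genotypes all 6 TFH samples lay above all 6 non-TFH samples, with log2 fold changes of 1.84 (SE 0.12, adjusted p = 5.13e-09) in WT and 1.69 (SE 0.18, adjusted p = 1.71e-06) in S1PR4-/- mice. Among WT GC B samples the values were 15.2, 17.7 and 26.1 CPM against 12.7, 18.1, 26.2, 18.2 and 12.5 CPM in WT non-GC B samples. In S1PR4-/- GC B cells the samples had 13.8, 16.6 and 20.9 CPM against 24.4, 12.9, 8.38 and 13.98 CPM in S1PR4-/- non-GC B samples. Both pairs overlapped widely, at log2 fold changes of 0.19 (SE 0.21, adjusted p = 0.436) and 0.23 (SE 0.25, adjusted p = 0.439). The latter was 0.57 (adjusted p = 0.0218, under the fold threshold) without non-GC B replicate 1 and 0.01 without replicate 3. By mean, S1PR4-/- TFH (130.8 ± 35.0 CPM, SD) and WT TFH (125.1 ± 21.1) overlapped and lay above S1PR4-/- non-TFH (41.1 ± 8.46) and WT non-TFH (35.0 ± 4.88), which overlapped each other and, for WT, lay above WT GC B (19.1 ± 4.41). WT non-GC B (17.5 ± 5.56), S1PR4-/- GC B (16.7 ± 2.53) and S1PR4-/- non-GC B cells (14.9 ± 6.76) followed with overlap at each step.

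Egr3 (ENSMUSG00000033730.4, chr14:70077203-70082614, plus strand) codes for a factor that works beside EGR2 in lymphocytes, and it followed another pattern. In T cells its lowest, median and highest levels were 5.62, 8.59 and 11.2 CPM in WT TFH, 4.69, 9.09 and 12.4 CPM in S1PR4-/- TFH, 5.40, 7.34 and 7.63 CPM in WT non-TFH, and 5.74, 8.76 and 10.6 CPM in S1PR4-/- non-TFH samples. These 4 groups overlapped, and the TFH log2 fold change was 0.32 (SE 0.18, adjusted p = 0.130) in WT and 0.06 (SE 0.21, adjusted p = 0.824) in S1PR4-/- mice. WT GC B samples had 2.45, 5.06 and 7.36 CPM and S1PR4-/- GC B samples 2.59, 3.73 and 4.51 CPM. WT non-GC B samples had 29.1, 32.4, 30.7, 24.4 and 26.7 CPM, and S1PR4-/- non-GC B samples 16.5, 30.2, 19.3 and 28.4 CPM. Each non-GC B sample lay above every GC B sample and every T cell sample of its genotype. GC B cells were lower by log2 fold changes of -2.46 (SE 0.22, adjusted p = 7.03e-07) in WT and -2.59 (SE 0.21, adjusted p = 1.22e-06) in S1PR4-/- mice. WT non-GC B (28.7 ± 3.17 CPM, SD) and S1PR4-/- non-GC B cells (23.6 ± 6.71) led the order and overlapped each other, with a gap to S1PR4-/- TFH (8.82 ± 2.62). S1PR4-/- non-TFH (8.54 ± 1.87), WT TFH (8.48 ± 2.28), WT non-TFH (6.81 ± 1.04), WT GC B (4.99 ± 1.66) and S1PR4-/- GC B cells (3.76 ± 0.716) followed, each overlapping the next.

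The NR4A genes code for orphan nuclear receptors that act without a known ligand and restrain activated T cells. Nr4a1 (ENSMUSG00000023034.7, chr15:101254269-101274795, plus strand) had a lowest, median and highest level of 75.5, 87.1 and 115.6 CPM in WT TFH and 68.0, 104.0 and 126.2 CPM in WT non-TFH samples. S1PR4-/- TFH samples had 75.6, 80.5 and 111.2 CPM and S1PR4-/- non-TFH samples 97.0, 112.7 and 149.3 CPM. TFH and non-TFH samples overlapped in both genotypes, at log2 fold changes of -0.20 (SE 0.13, adjusted p = 0.179) in WT and -0.38 (SE 0.13, adjusted p = 0.0140, under the fold threshold) in S1PR4-/- mice. In WT GC B cells the samples had 7.09, 16.5 and 24.0 CPM, against 119.9, 99.2, 51.6, 90.6 and 72.0 CPM in WT non-GC B samples. Among S1PR4-/- GC B samples the values were 10.1, 11.5 and 13.2 CPM, against 62.4, 65.9, 43.6 and 63.7 CPM in S1PR4-/- non-GC B samples. All GC B samples lay below all non-GC B samples, with replicate 3 lowest among the non-GC B samples of either genotype. The log2 fold change was -2.41 (SE 0.29, adjusted p = 8.70e-06) in WT and -2.31 (SE 0.13, adjusted p = 7.60e-08) in S1PR4-/- mice. In the order of means S1PR4-/- non-TFH (117.0 ± 19.4 CPM, SD), WT non-TFH (103.5 ± 20.4), WT TFH (89.7 ± 13.6), S1PR4-/- TFH (88.7 ± 16.2), WT non-GC B (86.6 ± 26.1) and S1PR4-/- non-GC B cells (58.9 ± 10.3) each overlapped the next. A gap separated them from WT GC B (15.6 ± 6.07) and S1PR4-/- GC B cells (11.4 ± 1.13), which overlapped.

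Nr4a2 (ENSMUSG00000026826.13, chr2:57106830-57124003, minus strand), the second receptor of the family, was a low transcript found mainly in T cells. WT TFH samples had 2.91, 4.24 and 6.89 CPM (lowest, median, highest) and WT non-TFH samples 0.953, 1.26 and 2.96 CPM. They overlapped only between WT TFH replicate 6 at 2.91 CPM and WT non-TFH replicate 2 at 2.96 CPM, and Nr4a2 was called higher in TFH cells at a log2 fold change of 1.51 (SE 0.31, adjusted p = 4.95e-04). S1PR4-/- TFH samples had 1.23, 2.13 and 3.58 CPM and S1PR4-/- non-TFH samples 1.05, 1.401 and 1.53 CPM. TFH replicates 1 and 5 lay within the non-TFH range, and the log2 fold change was 0.77 (SE 0.28, adjusted p = 0.0259). That call was lost with limma voom (0.60, adjusted p = 0.0799), with all 8 groups in the fit (0.75, adjusted p = 0.318) and with the replicate number as a block (0.66, adjusted p = 0.0750), and these numbers pair the samples of S1PR4-/- T cells. Leaving out S1PR4-/- TFH replicate 3 (0.59) or 6 (0.61), or S1PR4-/- non-TFH replicate 2 (0.73) or 3 (0.69), also ended it. WT GC B samples had 0 to 16 counts (0, 0.364 and 0.501 CPM) and S1PR4-/- GC B samples 0 to 21 counts (0, 0.359 and 0.763 CPM). WT non-GC B samples had 0, 0, 2, 0 and 23 counts, the last at 0.817 CPM, and all 4 S1PR4-/- non-GC B samples had 0 counts, where 3 counts would be 0.0843 to 0.102 CPM. The effector comparison was not tested in B cells because of these counts. By mean the order was WT TFH (4.46 ± 1.43 CPM, SD), S1PR4-/- TFH (2.31 ± 1.02), WT non-TFH (1.57 ± 0.780) and S1PR4-/- non-TFH (1.36 ± 0.182), each overlapping the next, then with a gap S1PR4-/- GC B (0.335 ± 0.301), WT GC B (0.296 ± 0.196), WT non-GC B (0.174 ± 0.360) and S1PR4-/- non-GC B cells.

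Nr4a3 (ENSMUSG00000028341.9, chr4:48045153-48086447, plus strand), the remaining receptor, was also low. WT TFH samples had 1.499, 2.09 and 3.66 CPM (lowest, median, highest) and WT non-TFH samples 1.72, 2.72 and 3.99 CPM, which overlapped at a log2 fold change of -0.32 (SE 0.24, adjusted p = 0.255). S1PR4-/- TFH samples had 0.803, 1.51 and 2.32 CPM, below all 6 S1PR4-/- non-TFH samples at 2.51, 4.15 and 4.86 CPM. Nr4a3 was called lower there, at a log2 fold change of -1.35 (SE 0.28, adjusted p = 5.60e-04), and whether the 2 genotypes differ is tested with the interactions. Among WT GC B samples the values were 0, 0.0459 and 0.339 CPM (0 to 11 counts) and WT non-GC B samples 1.02, 1.51, 0.841, 0.591 and 0 CPM. They overlapped because WT non-GC B replicate 5 had 0 counts, and Nr4a3 was called lower at a log2 fold change of -3.07 (SE 0.97, adjusted p = 0.0132). Limma voom gave -2.94 without a call (adjusted p = 0.0582), and without WT GC B replicate 6, which had 11 counts, the gene did not pass the filter. The GC B samples of S1PR4-/- mice had 0.0853, 0.190 and 0.654 CPM and S1PR4-/- non-GC B samples 0, 1.39, 0.534 and 0.219 CPM, an overlap with a log2 fold change of -0.88 (SE 0.90, adjusted p = 0.408), or 0.17 without S1PR4-/- non-GC B replicate 2. Mean levels ran from S1PR4-/- non-TFH (4.03 ± 0.861 CPM, SD), WT non-TFH (2.79 ± 0.724), WT TFH (2.23 ± 0.757) and S1PR4-/- TFH (1.57 ± 0.644) to WT non-GC B (0.792 ± 0.555), S1PR4-/- non-GC B (0.536 ± 0.610), S1PR4-/- GC B (0.282 ± 0.226) and WT GC B cells (0.0869 ± 0.128), and all neighbours overlapped.

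The first comparison asked how the members differ between TFH cells and other CD4+ T cells. Of 10 members tested in WT mice, 3 were called higher (Egr1, Egr2 and Nr4a2), where 22.8% of all genes tested were, and 1 was called lower (Jun), where 20.4% were. The median log2 fold change of the members was 0.37, and that of all genes was under 0.01. In S1PR4-/- mice 3 of 9 members tested were called higher, the same genes, against 22.3% of all genes, and 2 were called lower (Jun and Nr4a3), against 21.1%. There the median of the members was 0.06. The members' shares lay near those of all genes for TFH cells. Without S1PR4-/- TFH replicate 3 the S1PR4-/- count fell from 5 to 3. With the replicate number as a block, which pairs these samples, Nr4a2 was not called in S1PR4-/- mice (0.66, adjusted p = 0.0750).

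The second comparison set GC B cells against other B cells. In WT mice 0 of 9 members tested were called higher by edgeR, DESeq2 or limma voom, where 24.8% of all genes were called higher by edgeR, and 5 were called lower (Fos, Jun, Egr3, Nr4a1 and Nr4a3), where 23.1% were. In S1PR4-/- mice 0 of 8 members were called higher by any of these tools, against 25.3% of all genes, and 3 were called lower (Jun, Egr3 and Nr4a1), against 22.9%. At an unadjusted p under 0.05, 6 of the 9 WT and 4 of the 8 S1PR4-/- members differed in either direction, as did 9330 of 13324 and 9152 of 13484 of all genes. Without S1PR4-/- non-GC B replicate 1 the S1PR4-/- count was 6, with Egr1 called higher and Fosb and Nr4a2 newly past the filter and called. It was 5 without a filter or with all 8 groups in the fit, and the 2 added members were Fosb and Nr4a2. Nr4a2 then lay higher in GC B cells, at most 21 counts against 0 counts in all 4 S1PR4-/- non-GC B samples. A call against a group at 0 counts could only point higher, so nothing is concluded from it. The 0 members called higher above are of the 8 that passed the filter. The plot of effector against other cells sets the T and B cell fold changes of each member side by side.

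**Figure D2:**
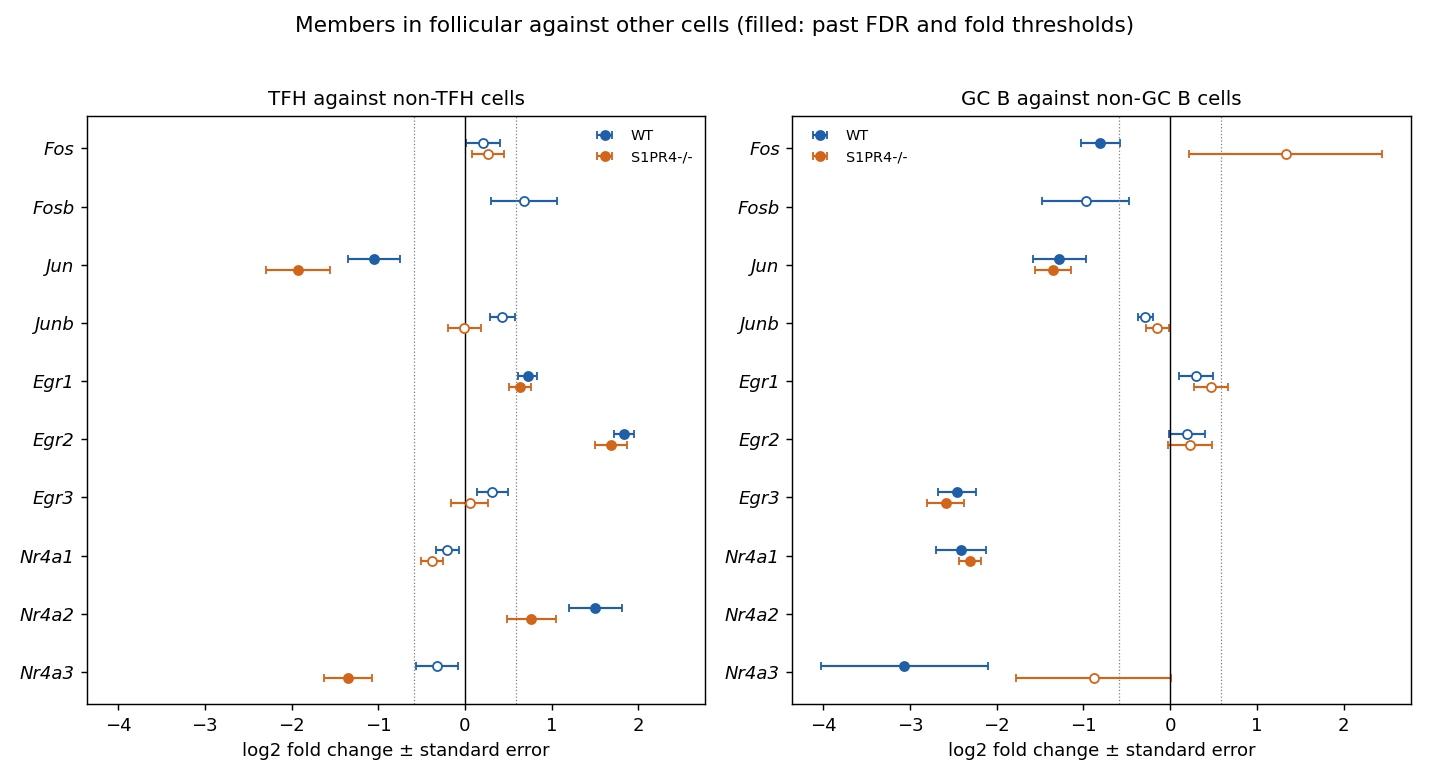
Log2 fold change of each tested member in TFH against non-TFH cells and in GC B against non-GC B cells, for WT and S1PR4-/- mice, with bars of 1 standard error from the edgeR fit; filled points passed both thresholds and dotted lines mark a fold of 1.5. Egr2 is at 1.84 in WT TFH cells and 0.19 in WT GC B cells, while Egr3 and Nr4a1 are at -2.46 and -2.41 in WT GC B cells.

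Whether the effector shift differed between T and B cells of WT mice was tested as an interaction that was added after the data had been seen. It was positive for all 10 members and called for 7 of them, where 41.7% of all 15101 genes tested were called in either direction. The largest were Egr3 at 2.84 (SE 0.29, adjusted p = 6.47e-08), Nr4a3 at 2.81 (SE 0.90, adjusted p = 0.0144) and Nr4a1 at 2.27 (SE 0.32, adjusted p = 5.75e-06) on the log2 scale. Fosb was next at 1.72 (SE 0.62, adjusted p = 0.0281), then Egr2 at 1.71 (SE 0.24, adjusted p = 5.20e-06). For Egr3 and Nr4a1 the difference came with a fall in GC B cells and little change in TFH cells, and for Egr2 with a rise in TFH cells and little change in GC B cells. Fos was at 1.08 (SE 0.29, adjusted p = 0.00490) and Junb at 0.78 (SE 0.19, adjusted p = 0.00200). Egr1 at 0.49 (SE 0.23, adjusted p = 0.0949), Nr4a2 at 0.70 (adjusted p = 0.657) and Jun at 0.29 (adjusted p = 0.666) were not called. The Fosb call was lost without a filter (adjusted p = 0.102), with all 8 groups (0.0839) or a replicate block (0.0920), and without WT TFH replicate 5 (log2 value 1.58) or WT non-GC B replicate 1 (1.54) or 5 (1.43). That of Fos was lost with all 8 groups (adjusted p = 0.278), a fit that takes in S1PR4-/- GC B replicate 4. That of Nr4a3 was lost with limma voom (adjusted p = 0.0615). Egr1 was called without WT GC B replicate 3 (0.62) and with a replicate block (adjusted p = 0.0201), and Nr4a2 was at -2.49 without WT non-GC B replicate 5, the library with 23 counts.

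B cells were also set against T cells of WT mice, with the sampling day as a second difference. In GC B against TFH cells 8 of 10 members were called lower, where 24.2% of all genes were, and 1 was called higher, where 20.1% were. Nr4a3 (-4.61, SE 0.61), Nr4a2 (-3.92, SE 0.50), Egr2 (-2.70, SE 0.16), Nr4a1 (-2.52, SE 0.24), Fos (-2.40, SE 0.15), Egr1 (-1.79, SE 0.16) and Junb (-1.36, SE 0.10) were lower on the log2 scale with every GC B sample below every TFH sample. Egr3 was lower with overlap (-0.75, SE 0.24, adjusted p = 0.0141), and Jun was higher with overlap (1.75, SE 0.33, adjusted p = 3.46e-04). Fosb differed by -0.58 (SE 0.37, adjusted p = 0.177).

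In non-GC B against non-TFH cells 5 of 9 members were called lower, where 19.1% of all genes were, and 2 were called higher, where 19.7% were. Jun (2.08, SE 0.29, adjusted p = 2.67e-05) and Egr3 (2.13, SE 0.13, adjusted p = 6.00e-09) were higher on the log2 scale, with all 5 non-GC B samples above all 6 non-TFH samples. Nr4a2 (-3.14, SE 0.99), Nr4a3 (-1.75, SE 0.60), Fos (-1.27, SE 0.26), Egr1 (-1.25, SE 0.16) and Egr2 (-0.93, SE 0.18) were lower with no overlap. Without WT non-GC B replicate 5 the Nr4a2 value was -6.37. Nr4a1 differed by -0.20 (SE 0.19, adjusted p = 0.411). Junb, at -0.53 (SE 0.15, adjusted p = 0.0100), was under the fold threshold but passed it with total counts (-0.66), with all 8 groups (-0.59), and without WT non-TFH replicate 2 (-0.61) or 3 (-0.59) or WT non-GC B replicate 1 (-0.59). Scaling by total counts moved the median of all genes in this comparison to -0.14, against -0.002 with TMM.

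The study's main question was the effect of S1PR4 loss, and no member was called between genotypes by edgeR in any population. Genotype was partly tied to sex in T cells, since Xist was above 1 CPM in 5 of 6 WT but 2 of 6 S1PR4-/- samples of both TFH and non-TFH cells (3 of 6 in each GC B group, and 3 of 5 and 2 of 4 in non-GC B cells). With Xist as a covariate the TFH values of Egr2 and Egr3 turned from 0.06 and 0.05 to -0.25 each on the log2 scale, neither called, and all genes called rose from 67 to 149. In TFH cells 0 of 10 members were called, where 0.496% of all genes were, and 1 had an unadjusted p under 0.05, as did 2586 of all 13495 genes. That was Nr4a2, with 2.91 to 6.89 CPM in WT and 1.23 to 3.58 CPM in S1PR4-/- TFH samples, at a log2 fold change of -0.96 (SE 0.30, adjusted p = 0.0988). In all, 4 of the 6 S1PR4-/- samples lay below all WT samples. DESeq2 called Nr4a2 (-0.96, adjusted p = 0.0241) and no other member, and limma voom called 0. Plasma cell markers summed to 282.5 to 649.3 CPM in WT and 239.6 to 287.7 CPM in S1PR4-/- TFH samples, and Jchain averaged 61.8 and 5.01 CPM. WT TFH replicates 4 and 5 were the 2 highest for both Nr4a2 and this sum, and the part of plasma cell transcripts, or of other markers that moved with genotype and are not given here, in the Nr4a2 value was not tested. Nr4a3 followed at -0.52 (SE 0.30, adjusted p = 0.364), or -0.32 without WT TFH replicate 3, Fos was at 0.32 (SE 0.15, adjusted p = 0.268) and Egr1 at 0.22 (SE 0.13, adjusted p = 0.386), and the other 6 lay between -0.10 and 0.35, all with overlap.

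In non-TFH cells 0 of 9 members were called by edgeR, DESeq2 or limma voom, where 0.114% of all genes were called by edgeR, and 3 had an unadjusted p under 0.05, as did 1486 of all 13197 genes. Those were Egr1, at 104.3 to 153.6 CPM in WT and 146.1 to 189.6 CPM in S1PR4-/- samples (log2 fold change 0.32, SE 0.10, adjusted p = 0.219), Nr4a3 (0.53, SE 0.21, adjusted p = 0.342) and Jun (0.86, SE 0.38, adjusted p = 0.420). Fold changes were positive for 8 of the 9 members, Nr4a2 being the exception at -0.20, and their median was 0.32 on the log2 scale, where that of all genes was under 0.01. Marker sums also moved with genotype in non-TFH cells, some not given here, with regulatory T cell medians of 326.7 CPM in WT and 414.6 CPM in S1PR4-/- samples (overlapping). Apart from a fit with markers of the other lineage as a covariate, the part of cell composition in the members' values was not tested. Members are not replicates, and S1PR4-/- non-TFH replicate 1 was the highest non-TFH sample for both Jun and Junb. This library also had the highest TFH (486.7 CPM), plasma cell (218.9 CPM) and regulatory T cell (525.7 CPM) marker sums of the 12 non-TFH samples. Without it the Jun value was 0.54.

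In GC B cells 0 of 8 members were called by edgeR, DESeq2 or limma voom, where 0.0612% of all genes were called by edgeR, and 0 had an unadjusted p under 0.05, against 540 of all 13070 genes. Fos stood at a log2 fold change of 1.82 (SE 0.89, adjusted p = 0.985) with S1PR4-/- replicate 4 and -0.51 (adjusted p = 0.906) without it. Nr4a1 was at -0.45 (SE 0.23) and Egr3 at -0.41 (SE 0.23), each with an adjusted p of 0.985, and without WT GC B replicate 6 they were at -0.28 and -0.26. That library was the highest of its group for Jun, Egr3, Nr4a1 and Nr4a3 and had the highest myeloid (204.4 CPM) and B cell (11487 CPM) marker sums and S1pr4 level (37.1 CPM) of the group. Other marker sums, not given here, set it apart as well, so its cell composition is not excluded as a part of these values. In non-GC B cells 0 of 9 members were called by the same tools, where 0.0537% of all genes were called by edgeR, and 1 had an unadjusted p under 0.05, as did 593 of all 13038 genes. That was Nr4a1, at a log2 fold change of -0.55 (SE 0.21, adjusted p = 0.981), with 4 of the 5 WT samples above all 4 S1PR4-/- samples and WT replicate 3 within their range. Fold changes were negative for 8 of these 9 members, and Fosb was at 0.22.

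**Figure D3:**
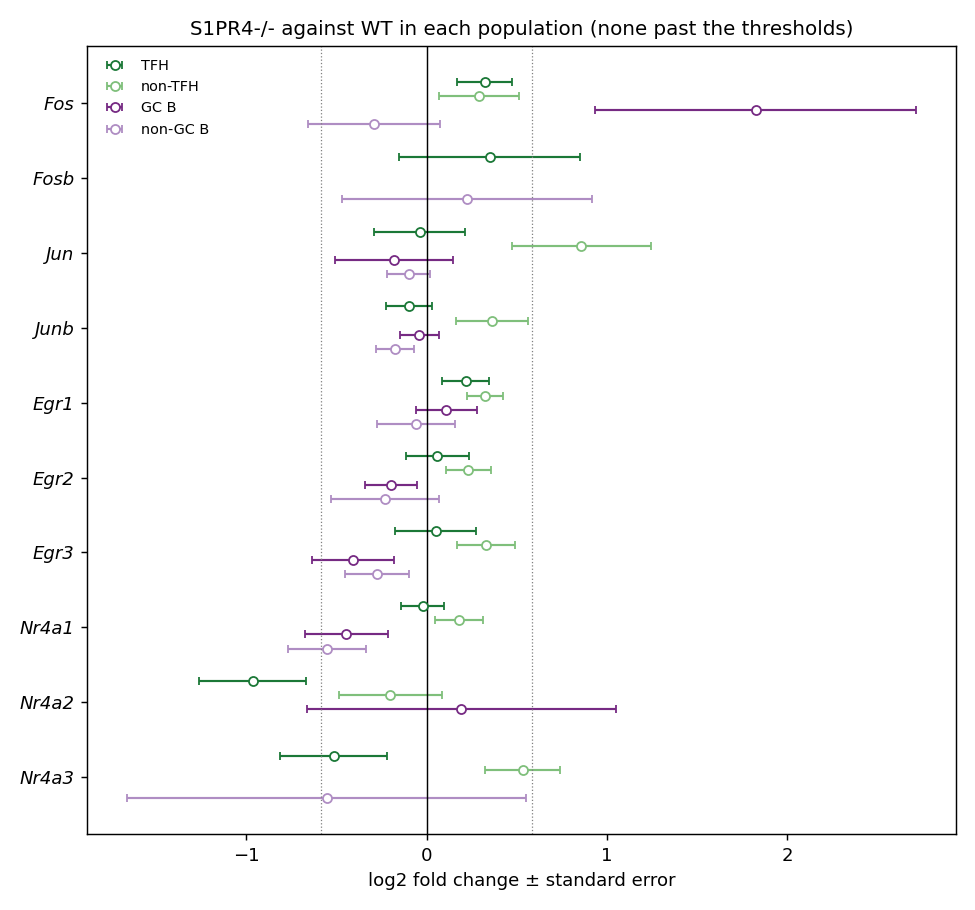
Log2 fold change of S1PR4-/- against WT for each tested member in TFH, non-TFH, GC B and non-GC B cells, with bars of 1 standard error from the edgeR fit; no point passed both thresholds. In non-TFH cells 8 of 9 values are positive, and Fos in GC B cells, at 1.82 with a standard error of 0.89, rests on 1 library.

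Whether genotype changed the TFH shift was tested as an interaction, which was called for 0 of 10 members by edgeR, DESeq2 or limma voom, where edgeR called 0.0139% of all genes. Nr4a3 alone had an unadjusted p under 0.05, as did 1325 of all 14401 genes, with a difference of -1.05 (SE 0.36, adjusted p = 0.366) on the log2 scale, so the call of Nr4a3 in S1PR4-/- T cells alone is not shown to differ from WT. Jun was at -0.90 (SE 0.50, adjusted p = 0.608), or -0.57 without S1PR4-/- non-TFH replicate 1, and Nr4a2 at -0.76 (SE 0.42, adjusted p = 0.605). For the GC B shift 0 of 10 members were called by the same tools and 0% of all genes by edgeR, and 1 had an unadjusted p under 0.05, as did 664 of all 14490 genes. That was Nr4a2, for which no fold is given since its 4 S1PR4-/- non-GC B samples had 0 counts. Fos was at 2.14 (SE 1.13, adjusted p = 1.00) and at -0.22 (adjusted p = 0.985) without S1PR4-/- GC B replicate 4.

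The members' variation was then compared between samples, as Pearson's r of log2 CPM and as a description, since the 45 samples form 8 groups. Over all 45 samples Egr1 and Egr2 had r = 0.937, Junb and Egr1 0.847, and Fos and Junb 0.816. Jun ran opposite to several members, with r = -0.750 with Egr2, -0.735 with Nr4a2 and -0.730 with Egr1. Over deviations from the 8 group means (n = 45) the highest pairs were Egr1 with Egr2 at 0.730, Jun with Junb at 0.659, Egr3 with Nr4a3 at 0.480 and Egr3 with Nr4a1 at 0.413, and the lowest was Junb with Nr4a2 at -0.404. Within groups the members did not share a highest library, since S1PR4-/- TFH replicate 3 was highest of its group for 5 of the 10 members and every other library for at most 4, leaving out ties at 0 counts. The largest numbers of lowest values were 5 each, in S1PR4-/- non-TFH replicate 6 and S1PR4-/- non-GC B replicate 3.

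**Figure D4:**
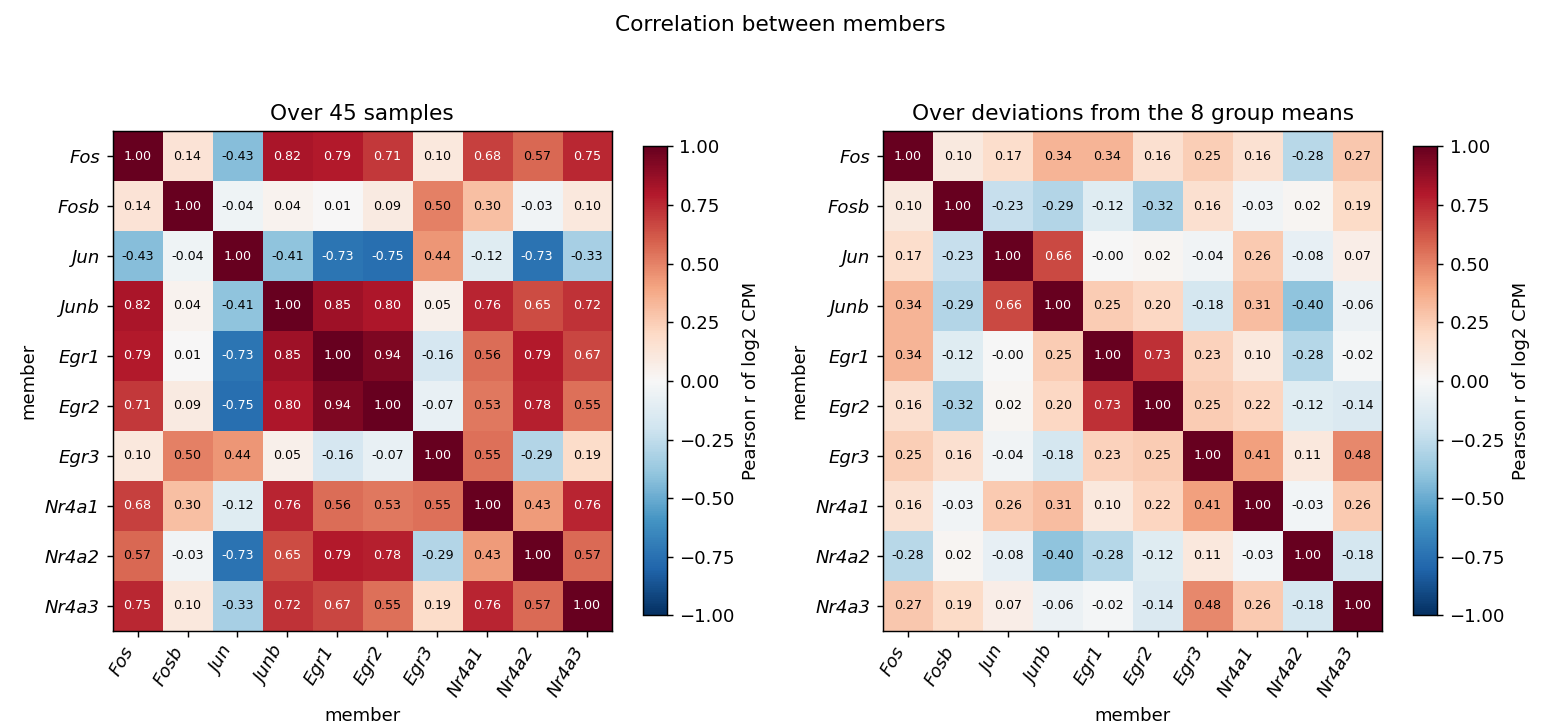
Pearson's r of log2 CPM between each pair of the 10 members, over all 45 samples (left) and over deviations from the 8 group means (right), with the colour giving r. Egr1 and Egr2 are at 0.937 on the left and 0.730 on the right, and Jun with Junb are at 0.659 on the right.

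Among all genes with a mean of at least 1 CPM, the 5 most like Fos over the 45 samples were A430093F15Rik (r = 0.832), Rln3 (0.831), Abcb9 (0.828), Ydjc (0.825) and Sh3gl3 (0.823). Over deviations from group means they were Igkv3-3 (0.747), Ppp1r15a (0.569), Cox18 (0.542), Ifi27 (0.513) and Clasrp (0.512), and without S1PR4-/- GC B replicate 4 these fell to 0.128, 0.317, 0.471, 0.268 and 0.224 (n = 44), with Armcx6 (0.567) and Dnajc1 (0.530) then highest. For Egr1 they were Fyn (0.962), Tnfsf11 (0.953), Sh3gl3 (0.953), Inpp5b (0.948) and Msl3l2 (0.948) over the samples, and Egr2 (0.730), Zfp688 (0.650), Hvcn1 (0.590), Wdr5b (0.589) and Eps15l1 (0.585) over deviations. For Nr4a1 they were Sox4 (0.964), Cdc42se1 (0.962), Tespa1 (0.962), Myl12b (0.958) and Hopx (0.955) over the samples, and Ier2 (0.672), Cd52 (0.665), Abcb9 (0.664), Vwa5a (0.650) and Coq10a (0.645) over deviations. The first set for each gene follows differences between populations, and the second leaves them out.

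Other genes of the pathway were counted from lists, each beside a median log2 fold change of all genes between 0.00 and 0.03. Of all genes 22.8% were called higher and 20.4% lower in WT TFH cells, and 22.3% and 21.1% in S1PR4-/- TFH cells. Of 8 AP-1 and ATF/MAF partners tested in WT TFH against non-TFH cells, 3 were called higher and 1 lower (median 0.03), with Batf at 2.00 (SE 0.09) and Mafg at 2.18 (SE 0.16). Of 11 EGR corepressors and SRF/TCF regulators 4 were higher and 0 lower (median 0.49), with Crem at 1.06 (SE 0.13), Elk3 at 0.65 (SE 0.07) and Srf at 0.60 (SE 0.09), the last not called after scaling by total counts (0.55) or without WT non-TFH replicate 6 (0.55). Among 26 other primary response genes 8 were higher and 8 lower (median -0.21), with Ier5l at 5.33 (SE 0.44), Gadd45b at 2.44 (SE 0.18) and Trib1 at 2.43 (SE 0.15). The 7 ERK feedback genes had 5 higher and 0 lower (median 1.09), with Dusp4 at 2.23 (SE 0.22), Spry1 at 1.42 (SE 0.15) and Spred1 at 1.36 (SE 0.15). The 15 antigen receptor and NFAT induced genes had 13 higher and 0 lower (median 2.12), with Il21 at 7.18 (SE 0.24), Tox2 at 6.86 (SE 0.42) and Pdcd1 at 5.13 (SE 0.28), all 3 also in the list of TFH markers, and PD1, the product of Pdcd1, was a marker of the sort. This count thus cannot be told apart from TFH identity. The 15 genes of the RAS and MAP kinase relay had 1 higher and 5 lower (median -0.24), with Rasgrp3 at 3.71 (SE 0.61), Rasgrp2 at -2.53 (SE 0.11) and Rasgrp1 at -1.49 (SE 0.10). In S1PR4-/- mice the same lists, in this order, had 2 higher and 3 lower of 7, 2 and 0 of 11, 6 and 11 of 26, 4 and 0 of 7, 13 and 0 of 15, and 1 and 5 of 14.

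Of all genes 24.8% were called higher and 23.1% lower in WT GC B cells, and 25.3% and 22.9% in S1PR4-/- GC B cells. In WT GC B against non-GC B cells the partners had 0 higher and 3 lower of 7 (median 0.26), with Mafk at -1.20 (SE 0.14), Jund at -0.85 (SE 0.08) and Mafg at -0.61 (SE 0.10). Mafg was not called without WT GC B replicate 4 (-0.55) or 5 (-0.57) or WT non-GC B replicate 2 (-0.56). The corepressors and regulators had 0 higher and 3 lower of 10 (median -0.29), with Nab2 at -1.32 (SE 0.16), Mrtfa at -0.77 (SE 0.10) and Elk4 at -0.63 (SE 0.12), the last not called without WT GC B replicate 4 (-0.58) or WT non-GC B replicate 2 (-0.50). Other primary response genes had 2 higher and 16 lower of 26 (median -0.73), with Klf2 at -2.45 (SE 0.28), Ier2 at -2.14 (SE 0.11) and Gadd45b at 1.87 (SE 0.13). ERK feedback genes had 3 higher and 2 lower of 7 (median 0.59), with Spred1 at 2.46 (SE 0.30) and Dusp6 at -0.65 (SE 0.13), the latter not called without WT non-GC B replicate 3 (-0.52). Antigen receptor and NFAT induced genes had 3 higher and 3 lower of 12 (median -0.08), with Tox at 8.22 (SE 0.49), Tox2 at 8.03 (SE 0.57) and Nfatc1 at -0.94 (SE 0.12). The relay had 1 higher and 5 lower of 15 (median -0.40), with Rasgrp2 at -1.51 (SE 0.14), Rps6ka3 at -0.92 (SE 0.17) and Braf at -0.83 (SE 0.12). In S1PR4-/- mice the 6 lists had 1 higher and 2 lower of 7, 1 and 2 of 10, 2 and 14 of 26, 3 and 0 of 7, 3 and 3 of 12, and 1 and 5 of 15.

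Since Fos and Jun respond to handling, 10 heat shock and handling genes were counted as well. In TFH against non-TFH cells 5 were higher and 1 lower in WT (median 0.54) and 3 higher and 0 lower in S1PR4-/- mice (median 0.47), and in GC B against non-GC B cells 4 and 6 were higher and 0 lower (medians 0.42 and 0.80). In WT mice Hsp90aa1 was at 1.14 (SE 0.06) in TFH and 1.22 (SE 0.10) in GC B cells, Hsp90ab1 at 0.82 (SE 0.06) in TFH, Hspe1 at 0.78 (SE 0.09) in GC B, and Hspd1 at 0.61 (SE 0.08) and 0.64 (SE 0.09). Hspd1 was not called in TFH cells with total counts (0.56) or without WT TFH replicate 4 (0.56) or WT non-TFH replicate 2 or 3 (0.58 each), nor in GC B cells with total counts (0.54) or all 8 groups (0.57). Their part in the members' values was not tested. For the interaction of genotype with the TFH shift 1 of 27 other primary response genes was called (lower), where 2 of all 14401 genes were, a number that ran from 0 to 6 leaving out replicates. Between genotypes within a population 3 list genes were called by edgeR. Of all genes 0.496% were called in TFH, 0.114% in non-TFH, 0.0612% in GC B and 0.0537% in non-GC B cells. Ier5l was lower in all 6 S1PR4-/- TFH samples than in any WT TFH sample (2.32 ± 0.538 against 5.74 ± 0.765 CPM, SD) at -1.31 on the log2 scale (SE 0.18, adjusted p = 0.00434), and it was not called with all 8 groups (-1.31, adjusted p = 0.170) or with B cell markers as a covariate (-1.31, adjusted p = 0.0676). Fosl2 in TFH cells (-0.96, SE 0.22, adjusted p = 0.0499) and Nfkbid in non-TFH cells (0.62, SE 0.10, adjusted p = 0.0160), both with overlap, were chosen after their values were seen.

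These values have limits. Groups held 4 to 6 samples, and a gene not called between genotypes is not shown to be equal. Fosb, Nr4a2 and Nr4a3 had so few counts in B cells that single libraries moved their values. Transcripts of immediate early genes are short-lived, and the part of dissociation and sorting in their levels was not tested. Protein and antigen receptor signalling were not measured.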

How the data were processed

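The data were the table of expected counts per gene from RSEM that the authors deposited, in which 8.83% of the values were not whole numbers. They were rounded to whole numbers for the tests. Upstream tools named by the authors were Cutadapt 2.10, STAR 2.5.3 (mm10) and RSEM 1.3.0, and how strand was used in counting is not stated. The number of genes matches GENCODE mouse release M21, while the methods name release M30. Of the gene symbols 111 are repeated in the table, none of them a member. All 10 members and all listed genes were found by symbol, and identifiers and exon lengths come from release M21.

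Tests used edgeR 4.0.16 in R 4.3.3, with filterByExpr, TMM factors and the quasi-likelihood F test on the samples of each comparison. Thresholds were an adjusted p under 0.05 and a fold over 1.5, and for interactions the adjusted p alone. Log2 CPM used a prior count of 2. The code was tested on simulated data with known changes. Alternatives were DESeq2 1.42.0, limma voom (limma 3.58.1), DESeq2-style or total count scaling, no filter, all 8 groups in one fit, the replicate number as a block, no fold threshold, leaving out each replicate, and for genotype Xist or markers of the other lineage as a covariate. After the data had been seen, the comparison of the TFH shift with the GC B shift and plasma cell markers as a covariate for GC B cells were added.

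Replicate numbers were taken as pairs only for S1PR4-/- TFH and non-TFH samples, where all 6 pairs of deviations had r between 0.119 and 0.185 and each of the 12 samples was most like its own number. In WT T cells r ran from 0.0327 to 0.194, and 7 of 12 samples were most like their own number. Xist gave the same sex in all 6 of those WT pairs, and pairing was not assumed there. The p values measure spread between samples, and the limit of 3 counts covers counting error only.

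Members and lists were chosen with earlier results of these data known. Genes outside the members were named from fixed lists: in each list the 3 with the largest absolute log2 fold change among those called, averaging 1 CPM or more and without overlap of groups, in the WT effector comparisons and in genotype comparisons. Likeness used the 5 highest Pearson's r with Fos, Egr1 and Nr4a1 among 12027 genes.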

Additional observations from a re-analysis of the deposited data

Results flagged for a closer look

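A single sample far from the rest of its group was looked for in 79 groups of values. The measure was the gap to the nearest sample over the range. Its cutoffs would pick about 1 in 20 groups of normally distributed values by chance, a rate that need not hold for low counts. Such samples numbered 6. They were Fos in S1PR4-/- GC B replicate 4 at 37.0 CPM (nearest sample 2.00), Nr4a1 in WT TFH replicate 4 at 115.6 CPM (nearest 88.6) and Nr4a1 in S1PR4-/- non-GC B replicate 3 at 43.6 CPM (nearest 62.4). The others were Nr4a2 in WT non-GC B replicate 5 at 0.817 CPM (23 counts, nearest 0.0525), Nr4a3 in WT TFH replicate 3 at 3.66 CPM (nearest 2.28) and Nr4a3 in WT GC B replicate 6 at 0.339 CPM (11 counts, nearest 0.0909).

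The shift between effector and other cells drew attention where it differed between T and B cells of WT mice. On the log2 scale the difference was 2.84 for Egr3, 2.81 for Nr4a3, 2.27 for Nr4a1, 1.72 for Fosb, 1.71 for Egr2, 1.08 for Fos and 0.78 for Junb.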

How the results depend on the processing

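The fits were repeated with 110 other settings and 181 times with a replicate left out, over 13 comparisons. No value of a called member changed sign, and the values below, on the log2 scale, belong to members that were not called. The cause was not tested.

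In S1PR4-/- TFH against non-TFH cells Egr3 was -0.0215 with total counts and -0.0014 with limma voom, and Junb was 0.0288 with limma voom and 0.0250 with the replicate block. Leaving out replicates, Junb ran from -0.10 to 0.18 and Egr3 from -0.0686 to 0.18. In S1PR4-/- GC B against non-GC B cells Fos was -0.22 with limma voom and Nr4a3 0.28 with the block, and leaving out replicates Fos ran from -1.03 to 1.76 and Nr4a3 from -1.29 to 0.17.

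Between genotypes in TFH cells Fosb was -0.13 with limma voom, Egr2 and Egr3 were each -0.25 with Xist as a covariate, and Nr4a1 was 0.11 with B cell markers as a covariate. Leaving out replicates, Jun ran from -0.19 to 0.13, Egr2 from -0.0291 to 0.18, Egr3 from -0.0732 to 0.18 and Nr4a1 from -0.10 to 0.0590. In non-TFH cells Nr4a2 ran from -0.31 to 0.0725. In GC B cells Nr4a2 was -0.28 with limma voom and -0.0251 with the block, and the ranges were -0.51 to 2.05 for Fos, -0.35 to 0.0421 for Jun, -0.13 to 0.0036 for Junb and -0.22 to 0.46 for Nr4a2. In non-GC B cells Fosb ran from -0.0095 to 0.59 and Egr1 from -0.22 to 0.11.

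For the interaction of genotype with the TFH shift Fos was -0.0243 with limma voom and -0.0313 with the block, and ran from -0.0860 to 0.17. For that with the GC B shift Jun was 0.0576 with limma voom and 0.26 with the block, and Egr3 was 0.22 with the block. The ranges were -0.22 to 2.62 for Fos, -0.24 to 0.13 for Jun, -0.15 to 0.39 for Egr2, -0.26 to 0.0124 for Egr3 and -0.0353 to 0.27 for Nr4a1. In the comparison of TFH and GC B shifts Nr4a2 was -0.44 with limma voom, -0.16 with the block and ran from -2.49 to 1.03.

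Counts moved as well. Members called in S1PR4-/- GC B against non-GC B cells numbered 3, but 5 without a filter, 5 with all 8 groups and 3 to 6 leaving out replicates, and in S1PR4-/- TFH against non-TFH cells 5, or 3 to 6 leaving out replicates. Without a fold threshold all genes called numbered 9262 in WT and 9468 in S1PR4-/- TFH against non-TFH cells, 9301 in WT GC B against TFH cells, 190 between genotypes in TFH and 31 in non-TFH cells.

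Between genotypes in TFH cells DESeq2 called 1 member, and all genes called went from 67 to 191 with DESeq2, 153 with all 8 groups, 149 with Xist, 12 with B cell markers and 15 to 117 leaving out replicates. In non-TFH cells 15 became 56 with DESeq2, 9 with Xist and 11 to 27 leaving out replicates. In GC B cells 8 became 14 with DESeq2, and in non-GC B cells 7 became 16 with DESeq2 and 25 with all 8 groups. For the T cell interaction 2 became 1 with total counts, 76 with DESeq2, 1 with limma voom, 41 with the block and 0 to 6 leaving out replicates. For the B cell interaction 0 became 6 with DESeq2, 5 with all 8 groups and 0 to 1 leaving out replicates.

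The block used replicate numbers, which were taken as pairs only for S1PR4-/- T cells. With it, Egr3 in GC B against TFH cells had an edgeR adjusted p of 0.0572 and Nr4a3 in non-GC B against non-TFH cells one of 0.0782. Fosb, Nr4a2 and Nr4a3 had few counts, which kept them from some tests in B cells, and the part of sequencing depth in this was not tested.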
